A study of Homo sapiens with 6 samples.

Results

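The 10 genes described here code for the growth kinase mTOR, its partner RPTOR, and proteins that restrain the kinase: DEPTOR, DDIT4 (the protein REDD1), the sestrins SESN1, SESN2 and SESN3, TSC1, TSC2 and AKT1S1 (the protein PRAS40). They were taken by name, by their place in the mTOR pathway. All 10 were among the 16444 genes of the spike-in table, and 9 were among the 12075 genes of the FPKM table, where SESN3 is not listed.

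mTOR complex 1 (mTORC1), which is built around mTOR and RPTOR, drives protein synthesis and cell growth when nutrients and growth signals are present. Cells hold it back at several points: DEPTOR and PRAS40 bind the complex, the TSC1-TSC2 complex turns off its activator Rheb, REDD1 acts through the TSC complex in hypoxia and other stress, and sestrins report stress and amino acid shortage. DEPTOR is known for its high expression in a part of multiple myelomas, the cancer of plasma cells.

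The study sequenced RNA of KMS-27 cells, a human line of multiple myeloma whose tissue label is bone marrow, after silencing of Che-1 (siChe-1) and in its control (siControl), with 3 libraries in each group. Che-1 is the RNA polymerase II-binding protein encoded by AATF. The labels name no other treatment or genotype, and the siRNA sequences, the dose and the time after silencing were not stated in them. Libraries were made in triplicate from 500 ng of total RNA, with no statement that these were separate cultures. The p-values below therefore reflect the spread between libraries alone, which could be technical.

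AATF had 14.2, 14.2 and 16.9 FPKM in the siChe-1 libraries, against 97.0, 88.8 and 119 FPKM in the siControl libraries. FPKM, the authors' count of fragments scaled to transcript length and library size, covers all 6 libraries, but its columns carry no replicate number and are named here by their position in the list. Spike-in reads numbered 379232 to 1041244 in siChe-1 and 351573 to 519573 in siControl. The spike-in table rests on siChe-1 replicates 1 and 2 and on the 3 siControl replicates, with 19650787 and 20744762 recovered gene reads in siChe-1 and 20412043 to 22326095 in siControl. siChe-1 replicate 3, which that table leaves out, had 379232 spike-in reads, within the range of siControl. All 9 plasma cell markers were listed, with summed levels of 8693 to 12180 FPKM in siChe-1 and 7327 to 10731 FPKM in siControl. None of the 5 myeloid and none of the 5 stromal markers was listed in FPKM, and the 1 listed of 4 T cell markers and the 1 listed of 4 erythroid markers stayed below 1 FPKM in every library.

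The members spanned a wide range of levels per length. In siChe-1, mean FPKM ran in the order DDIT4 (110), DEPTOR (97.3), SESN2 (35.4), SESN1 (32.6), MTOR (27.8), TSC2 (12.4), AKT1S1 (10.6), TSC1 (9.74) and RPTOR (5.30). In siControl the order was DEPTOR (166), DDIT4 (106), SESN1 (45.3), MTOR (26.4), SESN2 (25.5), TSC2 (12.6), AKT1S1 (9.73), TSC1 (8.06) and RPTOR (6.52). DEPTOR, SESN1 and MTOR each stood 1 place lower in siChe-1 than in siControl. Several neighbours were not separated by the spread of the libraries: in siChe-1 DDIT4 and DEPTOR overlapped, as did SESN2 and SESN1, and in siControl MTOR and SESN2 overlapped. Among all 12075 genes, DEPTOR ranked 806 in siChe-1 and 516 in siControl, and RPTOR ranked 7945 in siChe-1 and 7363 in siControl.

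**Figure D1:**
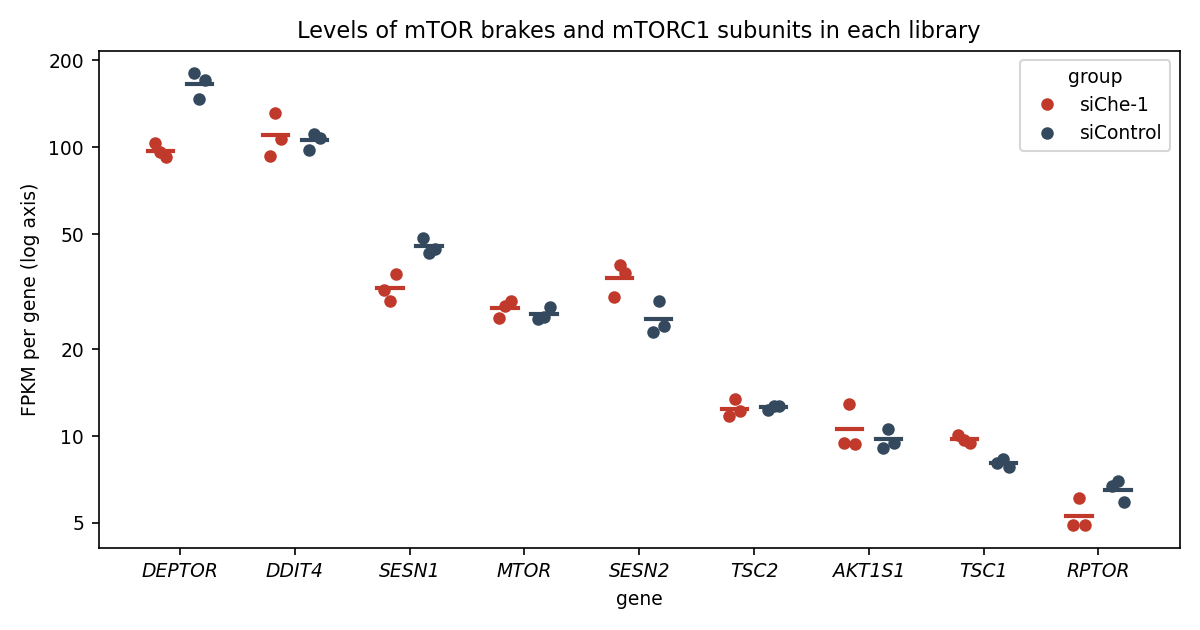
FPKM per gene on a log axis for the 9 members in the FPKM table, with a point for each library (siChe-1 in red, siControl in dark blue) and a line at each group mean (n = 3 per group). The siChe-1 points lie below all siControl points for DEPTOR and SESN1 and above them for SESN2 and TSC1.

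DEPTOR, which binds mTOR in both of its complexes, fell most among the members tested. It had 103, 96.2 and 92.6 FPKM in siChe-1, against 180, 147 and 171 FPKM in siControl. Every siChe-1 library was lower than every siControl library, and the means were 97.3 ± 5.45 FPKM in siChe-1 and 166 ± 17.02 FPKM in siControl (SD, n = 3 each). Relative to other genes, DEPTOR changed by -0.67 ± 0.10 (SE) on the log2(FPKM + 1) scale, with a limma adjusted p of 0.00364. At that value it stood at the 3.09 percentile of all tested genes, where low percentiles are the strongest falls. The recovered reads gave the same direction. DEPTOR had 6031 and 5826 reads in siChe-1 replicates 1 and 2, against 10045, 8824 and 10740 reads in siControl. With TMM, which scales each library to the bulk of its own genes, the log2 fold change was -0.74 ± 0.12 (SE), with an edgeR adjusted p of 0.000563. The gene is given by the files at chromosome 8, positions 120885900 to 121063157, plus strand (hg19), with 1 transcript listed. The authors' deposited table of transcripts lists for it a log2 of the group ratio of -0.77 with a q of 0.000601.

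DDIT4, the stress-induced brake known as REDD1, was close to DEPTOR in level in siChe-1 and did not pass the test. It had 93.0, 131 and 107 FPKM in siChe-1, against 97.8, 111 and 108 FPKM in siControl. The siChe-1 libraries reached both below and above all those of siControl, with means of 110 ± 19.2 FPKM in siChe-1 and 106 ± 6.99 FPKM in siControl (SD, n = 3 each). The difference was 0.14 on the log2(FPKM + 1) scale, with a 95% interval of -0.17 to 0.46 and a limma adjusted p of 0.465. Its reads numbered 3863 and 4526 in siChe-1, against 3579, 4045 and 3596 in siControl. The groups overlapped in reads too, and the TMM value was 0.15 ± 0.11 (SE; edgeR adjusted p 0.325). DDIT4 lies at chromosome 10, positions 74033677 to 74035797, plus strand (hg19).

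The sestrins, which inhibit mTORC1 in stress and in amino acid shortage, went in opposite directions relative to other genes. SESN1, a known target of p53, had 32.1, 29.4 and 36.3 FPKM in siChe-1, against 48.5, 43.0 and 44.5 FPKM in siControl. Its groups did not overlap, and it fell by 0.38 on the log2(FPKM + 1) scale (SE 0.09, limma adjusted p 0.0193). SESN2, a leucine-binding protein whose gene is known to be induced by ATF4, had 30.3, 39.2 and 36.7 FPKM in siChe-1, against 22.8, 29.5 and 24.1 FPKM in siControl. Here all siChe-1 libraries were the higher ones, and the gene rose by 0.55 ± 0.13 (SE) on the same scale (limma adjusted p 0.0199). Folds on the log2(FPKM + 1) scale understate the change of low genes.

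Reads of 5 libraries gave the same directions for both. SESN1 had 1746 and 1951 reads in siChe-1, against 2664, 2530 and 2593 in siControl, and a TMM log2 fold change of -0.50 ± 0.11 (SE; edgeR adjusted p 0.00378). SESN2 had 3664 and 3543 reads in siChe-1, against 2358, 2826 and 2422 in siControl, and a TMM log2 fold change of 0.50 ± 0.11 (SE; edgeR adjusted p 0.00562). Neither pair of groups overlapped. The FPKM calls of both genes depended on single libraries. By limma, SESN1 had an adjusted p of 0.0618 when the siChe-1 library at position 1 was left out, 0.0527 without that at position 2 and 0.0543 without the siControl library at position 1. SESN2 had a limma adjusted p of 0.0697 without the siChe-1 library at position 3, 0.0594 without the siControl library at position 1 and 0.0789 without that at position 3, and an edgeR adjusted p of 0.0691 on reads without siChe-1 replicate 1.

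SESN3, the third sestrin, was barely detected. It had 14 and 16 reads in siChe-1, against 7, 16 and 14 reads in siControl. The 95% exact Poisson interval, which covers counting error only, was 7.65 to 23.5 reads for a library with 14 reads and 2.81 to 14.4 reads for that with 7, and these intervals overlapped. edgeR with TMM gave 0.27 ± 0.43 (SE) with an adjusted p of 0.669.

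Nearly all of the SESN1 signal came from 1 transcript. Its most abundant transcript, of 3 listed, held 93.8% of the gene's FPKM in siChe-1 and 95.9% in siControl. SESN1 lies at chromosome 6, positions 109307640 to 109415708, minus strand (hg19), and SESN2 at chromosome 1, positions 28585963 to 28609002, plus strand, with 1 transcript listed. The promoters of the 3 stress-linked brakes are shown because SESN1 fell, SESN2 rose and DDIT4 passed no test relative to other genes. They are the 250 bases before the RefSeq start on GRCh38.p14, written 5′ to 3′ along the gene, with the letters of the GC box (GGGCGG, a site known for SP1) and of the CCAAT box (CCAAT) in capitals on either strand. The SESN1 window is chr6:109094847-109095096, the one of its 3 listed promoters that lies 27 bases from the start of its most abundant transcript. Those of SESN2 and DDIT4 are chr1:28259268-28259517 and chr10:72273674-72273923.
SESN1: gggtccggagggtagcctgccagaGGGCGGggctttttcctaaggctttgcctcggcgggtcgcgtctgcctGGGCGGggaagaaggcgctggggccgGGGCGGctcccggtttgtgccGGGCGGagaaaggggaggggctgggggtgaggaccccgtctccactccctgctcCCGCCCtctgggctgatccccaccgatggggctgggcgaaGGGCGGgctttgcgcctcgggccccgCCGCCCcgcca
SESN2: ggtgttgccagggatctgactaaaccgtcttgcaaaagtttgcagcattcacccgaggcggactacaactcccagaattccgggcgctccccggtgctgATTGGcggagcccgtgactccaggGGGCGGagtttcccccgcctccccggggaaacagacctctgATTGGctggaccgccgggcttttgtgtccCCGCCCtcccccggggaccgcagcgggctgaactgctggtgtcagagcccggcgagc
DDIT4: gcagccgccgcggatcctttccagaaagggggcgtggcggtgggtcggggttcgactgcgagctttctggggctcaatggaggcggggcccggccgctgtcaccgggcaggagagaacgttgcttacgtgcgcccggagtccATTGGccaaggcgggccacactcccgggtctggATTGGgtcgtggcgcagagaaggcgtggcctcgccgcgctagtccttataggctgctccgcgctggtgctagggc
The SESN1 window holds 7 GC boxes and 0 CCAAT boxes, the SESN2 window 2 of each, and the DDIT4 window 0 GC boxes and 2 CCAAT boxes. Of 35116 promoter windows of this length in the RefSeq table, 42.6% hold a GC box and 32.0% a CCAAT box. The E box CACGTG, found in 6.34% of them, and the cAMP response element TGACGTCA, found in 1.65%, are in none of the 3 windows on either strand. These matches describe the letters of the windows only.

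Of TSC1 and TSC2, whose complex turns off Rheb, edgeR with TMM called neither relative to other genes. TSC1 had 10.1, 9.66 and 9.46 FPKM in siChe-1, against 8.05, 8.30 and 7.84 FPKM in siControl. Its groups did not overlap, but with a mean of 8.90 FPKM it was below the minimum of 10 used for the limma test. At a minimum of 1 FPKM it gave 0.27 ± 0.08 (SE) on the log2(FPKM + 1) scale with a limma adjusted p of 0.0450. On reads, TSC1 had 3055 and 2863 in siChe-1, against 2469, 2368 and 2508 in siControl. Those groups did not overlap either, but the TMM value of 0.27 ± 0.11 (SE) had an edgeR adjusted p of 0.0808, and 0.0238 with upper-quartile scaling, where it was 0.34. TSC2, the subunit with the GTPase-activating domain, had 11.7, 13.5 and 12.2 FPKM in siChe-1, against 12.3, 12.7 and 12.7 FPKM in siControl. The groups overlapped, and the value was 0.072 on the log2(FPKM + 1) scale, with a 95% interval of -0.14 to 0.28 (limma adjusted p 0.589). It turned to -0.015 without rescaling of the libraries. TSC2 has a further uncertainty. Its interval in the files is chromosome 16, positions 2097990 to 2185899, plus strand (hg19). The files give PKD1 the same coordinates on the minus strand, so this interval is not that of TSC2 alone. The use of strand in counting is not given in the sources at hand.

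AKT1S1 codes for PRAS40, which binds RPTOR and blocks access of substrates until AKT phosphorylates it. It had 9.44, 12.9 and 9.38 FPKM in siChe-1, against 9.11, 10.6 and 9.48 FPKM in siControl. The groups overlapped in FPKM, with a single siChe-1 library above the rest. The value was 0.18 on the log2(FPKM + 1) scale, with a 95% interval of -0.17 to 0.53 (limma adjusted p 0.394). On reads the groups did not overlap, with 770 and 708 in siChe-1, against 613, 657 and 660 in siControl. The TMM value of AKT1S1 was 0.19 ± 0.12 (SE, edgeR adjusted p 0.248). MTOR, the kinase itself, had 25.7, 28.3 and 29.4 FPKM in siChe-1, against 25.5, 25.8 and 28.0 FPKM in siControl. These groups overlapped as deposited, and the value was 0.16 on the log2(FPKM + 1) scale, with a 95% interval of -0.0077 to 0.33 (limma adjusted p 0.133). MTOR had 7696 and 7711 reads in siChe-1, against 6999, 7026 and 7596 in siControl, without overlap. Its TMM value was 0.088 ± 0.10 (SE, edgeR adjusted p 0.564). The MTOR interval in the files, chromosome 1, positions 11166588 to 11322608, minus strand (hg19), is shared with ANGPTL7 on the plus strand. RPTOR, the scaffold that brings substrates to mTORC1, had 4.91, 6.08 and 4.91 FPKM in siChe-1, against 6.72, 6.97 and 5.89 FPKM in siControl. A single siChe-1 library reached into the range of siControl, and at a minimum of 1 FPKM the value was -0.23 ± 0.11 (SE) on the log2(FPKM + 1) scale with a limma adjusted p of 0.157. RPTOR had 1153 and 1042 reads in siChe-1, against 1311, 1262 and 1157 in siControl. These did not overlap, but did so after TMM scaling, where the value was -0.19 ± 0.13 (SE, edgeR adjusted p 0.283).

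Relative to other genes, then, limma called 2 of the 7 members tested lower (DEPTOR and SESN1) and 1 higher (SESN2). Among all 6285 tested genes, 15.1% were called lower and 15.1% higher. The median over the 7 tested members was 0.14, and over all tested genes it was -0.0040. After rescaling, siChe-1 lay below siControl in every library for 2 of these 7 (DEPTOR and SESN1), as for 22.8% of all tested genes, and above it for 2 (SESN2 and MTOR), as for 22.5%. Such shares were not counted for reads before spike-in scaling, so the lack of overlap in reads given above has no share beside it. The split of all calls depended on the scaling, with 949 higher and 948 lower after rescaling by the median of ratios, 592 higher and 1279 lower without rescaling, and 1221 higher and 713 lower by the upper quartile. On reads with TMM, edgeR called the same 2 genes lower and SESN2 higher among all 10 members, where 14.8% of 12490 tested genes were called lower and 14% higher. With the upper quartile in place of TMM, the split of all calls was 2245 higher and 1424 lower, against 1751 higher and 1853 lower.

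Against the spike-ins, every member had a negative log2 fold change, as nearly all genes did. The authors' deposited table gives -1.97 for DEPTOR (adjusted p 8.80e-05), -1.74 for SESN1 (0.000511), -1.41 for RPTOR (0.00326), -1.19 for TSC2 (0.0118), -1.15 for MTOR (0.0134), -1.10 for DDIT4 (0.0200), -1.04 for AKT1S1 (0.0290) and -0.96 for TSC1 (0.0362). These 8 of 10 members passed 0.05 in the lower direction in the authors' deposited table, where 63.5% of 12591 genes with a mean of at least 10 were called lower and 0.0635% higher. The other two are both sestrins: the authors' deposited table lists SESN2 at -0.75 with an adjusted p of 0.147 and SESN3 at -1.04 with an adjusted p of 0.423. The median over the 10 members in the authors' deposited table was -1.13, and over all genes it was -1.25.

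Values per library show where this scale separates the groups. DEPTOR had 4032 and 3055 spike-in-normalized reads in siChe-1 replicates 1 and 2, against 11172, 14258 and 16197 in siControl replicates 1 to 3. The lowest siControl library was far above both siChe-1 libraries. DDIT4 had 2582 and 2373 in siChe-1, against 3981, 6536 and 5423 in siControl, also without overlap. SESN2 had 2449 and 1858 in siChe-1, against 2623, 4566 and 3653 in siControl, where siChe-1 replicate 1 came close to siControl replicate 1. In spike-in-normalized reads, siChe-1 lay below siControl in every library for 9 of the 10 members, as for 89.5% of all tested genes. SESN3, with 9.36 and 8.39 in siChe-1 against 7.79, 25.9 and 21.1 in siControl, was the member whose groups overlapped. Each library started from 500 ng of total RNA, and the labels do not state whether spike-ins were added by cell number or by amount of RNA. In bulk RNA, fewer cells of a type and less RNA per cell cannot be told apart, and nothing here measures the RNA of a cell.

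**Figure D2:**
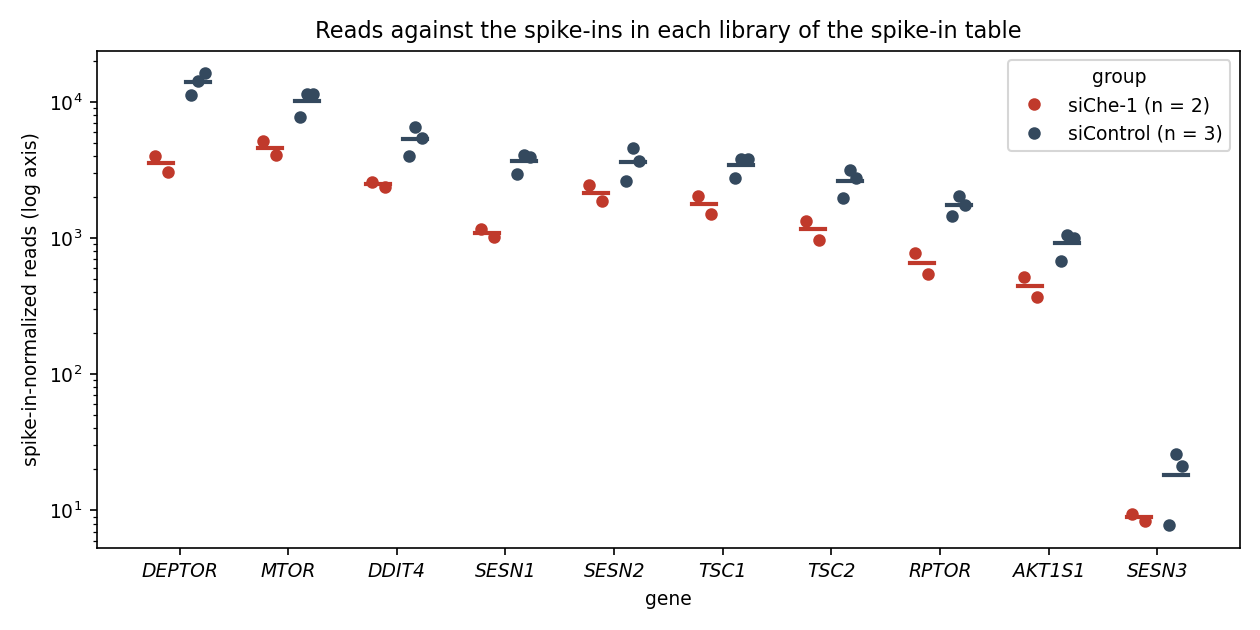
Spike-in-normalized reads on a log axis for the 10 members, with a point per library (siChe-1 replicates 1 and 2 in red, siControl replicates 1 to 3 in dark blue) and a line at each group mean. The groups overlap for SESN3 and for none of the other members, and siControl replicate 1 is the lowest siControl library for each gene.

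edgeR on the same reads called 9 of the 10 members lower on the spike-in scale, all but SESN3, where 84.3% of 12490 tested genes were called lower and 0.192% higher. Its value was -1.97 ± 0.34 (SE) for DEPTOR (edgeR adjusted p 2.43e-07), -1.10 ± 0.33 (SE) for DDIT4 (edgeR adjusted p 0.00157) and -0.75 ± 0.33 (SE) for SESN2 (edgeR adjusted p 0.0286). All genes of a library share its spike-in factor, so these calls are not independent of the change of all genes, whose median was -1.24. The call of SESN2 was lost without siControl replicate 2 (edgeR adjusted p 0.232), siControl replicate 3 (0.0928), siChe-1 replicate 1 (0.0838) or siChe-1 replicate 2 (0.308). TSC1 had an edgeR adjusted p of 0.0577 without siControl replicate 2, AKT1S1 had 0.0535 without siControl replicate 3, and SESN3 had 0.00783 without siControl replicate 1. With the replicate number as a block, edgeR called 0 of the 10 members on the spike-in scale (adjusted p 0.256 for DEPTOR, at -1.85) and 58 genes in all. Without siChe-1 replicate 2, edgeR called 2 of the 10 members lower (DEPTOR and SESN1) and 2847 genes in all, against 10553 with it. The same reads thus give SESN2 a positive value relative to other genes and a negative one against the spike-ins, and DDIT4, SESN3, TSC1, TSC2, AKT1S1 and MTOR did likewise without passing the relative test with TMM.

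**Figure D3:**
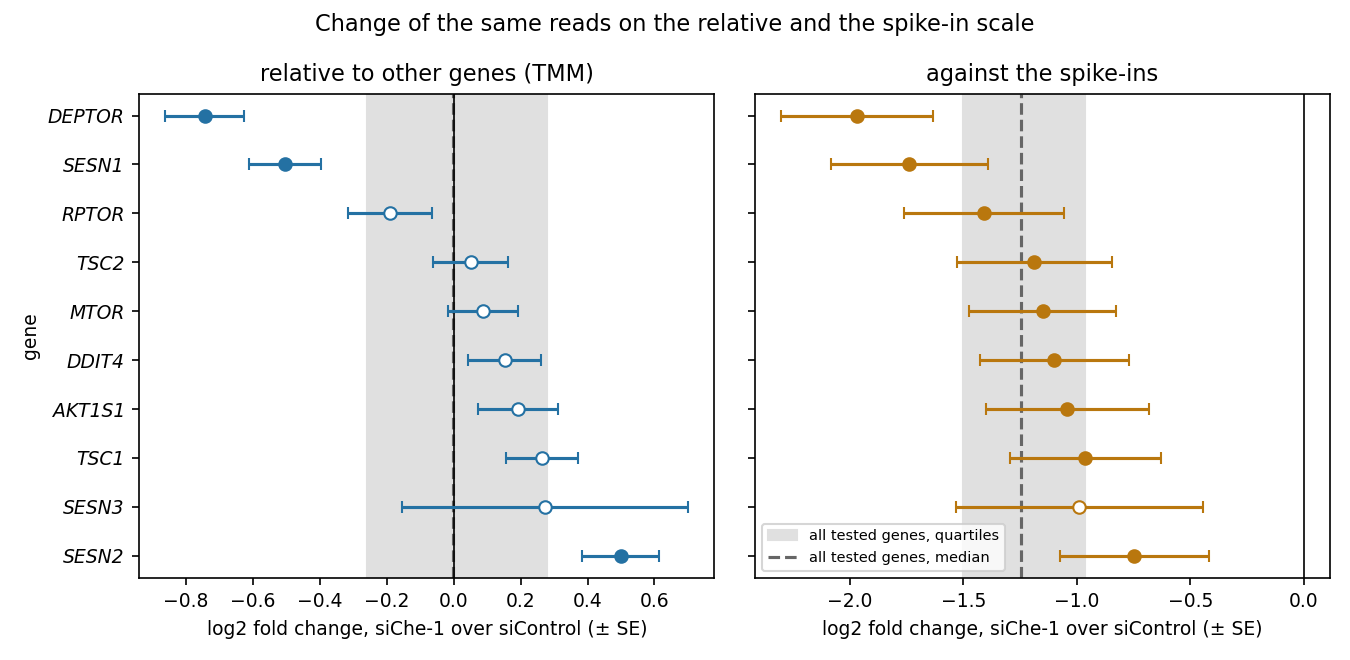
Log2 fold change, siChe-1 over siControl, of the recovered reads of the 10 members (points, ± SE from edgeR) relative to other genes with TMM, left, and against the spike-ins, right, with filled points at an adjusted p under 0.05. The grey band spans the quartiles of all tested genes and the dashed line their median, -0.0014 on the left and -1.24 on the right. DEPTOR and SESN1 are at the low end and SESN2 is at the high end on both sides. Both sides use the same reads and differ in the scale factor of each library, so the shared order is no separate evidence.

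Ratios of 2 members within a library need no scaling between libraries and show unequal change only. The 6 pairs were compared by exact two-sided permutation tests, which with 3 libraries against 3 cannot go below 0.1. Values adjusted over the 6 pairs stand beside them. DEPTOR per MTOR in FPKM was 4.01, 3.40 and 3.15 in siChe-1, against 7.09, 5.70 and 6.10 in siControl. The groups did not overlap, and the log2 difference was -0.84 (exact p = 0.1, adjusted 0.2). SESN1 per SESN2 was 1.06, 0.750 and 0.988 in siChe-1, against 2.12, 1.46 and 1.85 in siControl. This ratio, too, was lower in every siChe-1 library, with a log2 difference of -0.96 (exact p = 0.1, adjusted 0.2). TSC1 per TSC2 was 0.864, 0.717 and 0.776 in siChe-1, against 0.654, 0.651 and 0.619 in siControl, higher in all siChe-1 libraries, with a log2 difference of 0.29 (exact p = 0.1, adjusted 0.2). In the other pairs the groups overlapped in FPKM. RPTOR per MTOR had a log2 difference of -0.38 (exact p = 0.2), DDIT4 per MTOR one of -0.021 (exact p = 1) and AKT1S1 per MTOR one of 0.034 (exact p = 0.9). On reads of 5 libraries the differences were -0.83 for DEPTOR per MTOR, -1.003 for SESN1 per SESN2 and 0.21 for TSC1 per TSC2 (exact p = 0.2 each, the smallest possible there). RPTOR per MTOR did not overlap on reads either, with a log2 difference of -0.28 (exact p = 0.2). The groups overlapped on reads for DDIT4 per MTOR (exact p = 0.6) and AKT1S1 per MTOR (exact p = 0.4).

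**Figure D4:**
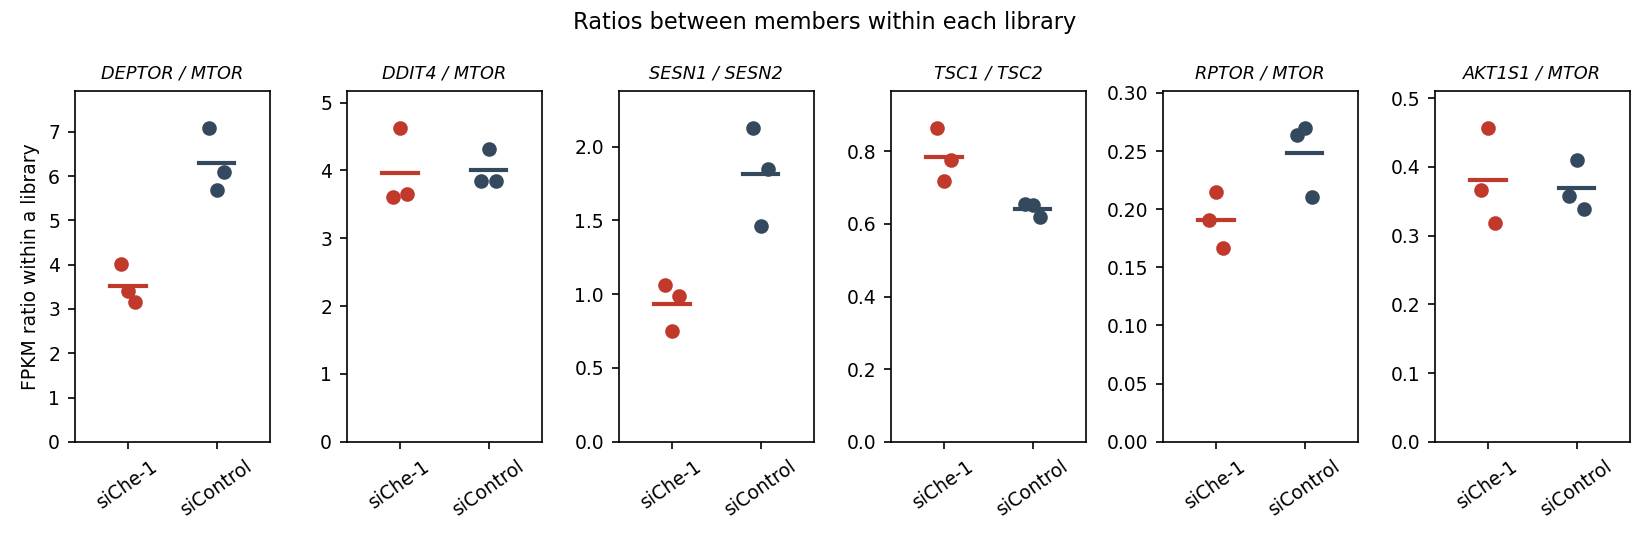
FPKM ratios of 6 pairs of members within each library, with a point per library, siChe-1 in red left of siControl in dark blue, and a line at each group mean (n = 3 per group); each axis starts at 0. DEPTOR per MTOR averaged 3.52 in siChe-1 and 6.30 in siControl, and SESN1 per SESN2 averaged 0.933 in siChe-1 and 1.81 in siControl.

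Around the brakes, genes of the wider mTOR pathway were called in both directions relative to other genes, as were genes at large. Of 77 genes in 7 lists, 72 were in the FPKM table and 45 passed its minimum, and limma called 10 of them higher and 7 lower, with a median of 0.080, where 15.1% of all tested genes were called higher and 15.1% lower. On reads, edgeR with TMM called 12 of 71 higher and 8 lower, with a median of 0.11, and 18 higher and 7 lower with upper-quartile scaling. With TMM, 14% of all tested genes were called higher and 14.8% lower. Leaving out single libraries brought the limma counts to as few as 4 higher (siChe-1 position 1) and 4 lower (siChe-1 position 3, and siControl positions 1 and 3). Without the siChe-1 library at position 3 limma called 5 higher, and without the siControl library at position 3 it called 6 higher. On reads, edgeR with TMM called 6 higher without siChe-1 replicate 1, 6 without siChe-1 replicate 2 and 7 without siControl replicate 3.

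RHEB, the small GTPase that switches mTORC1 on and that the TSC complex switches off, fell most of the tested pathway genes. It had 98.7, 81.4 and 93.3 FPKM in siChe-1, against 286, 225 and 301 FPKM in siControl, with no overlap. The value was -1.46 ± 0.12 (SE) in log2(FPKM + 1), with a limma adjusted p of 0.000618, and -1.52 on reads with TMM, and 3 named pseudogenes make its reads less certain. In the same list of 3, limma called TBC1D7, the third subunit of the TSC complex, higher (0.61 on the same scale). On reads with TMM, edgeR called 2 of the 3 higher and 1 lower. Those higher were TBC1D7 and RHEBL1 (0.56, edgeR adjusted p 0.0449), which was below the FPKM minimum. RHEB was the most abundant of the list at a mean of 181 FPKM over all libraries.

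Among subunits of the mTOR complexes, limma called 1 of 4 tested genes lower and 1 higher. MAPKAP1, which codes for the mTORC2 subunit SIN1 and was both the most abundant and the strongest, averaged 25.3 ± 1.27 FPKM in siChe-1 and 51.3 ± 3.81 FPKM in siControl (SD, n = 3 each). Its value was -0.90 ± 0.08 (SE) in log2(FPKM + 1), with a limma adjusted p of 0.000820. RICTOR, the scaffold of mTORC2, was the gene called higher (0.43 on that scale). On reads with TMM, RICTOR was at 0.21 with an edgeR adjusted p of 0.218, and edgeR called 0 of 7 subunits higher (1 before adjustment).

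Of the Rag GTPases, the Ragulator and their lysosomal partners, which bring mTORC1 to the lysosome, limma called 4 of 11 tested genes higher and 0 lower, with a list median of 0.27. Before adjustment, limma gave 5 higher and 0 lower at a p under 0.05, and edgeR with TMM called 4 of 13 higher and 0 lower. Among all tested genes, limma called 15.1% higher and 15.1% lower, and edgeR with TMM called 14% higher and 14.8% lower. RRAGD, a Rag GTPase, averaged 23.6 ± 1.001 FPKM in siChe-1 and 15.4 ± 0.605 FPKM in siControl (SD, n = 3 each; 0.67 ± 0.08 SE on the log2 scale, limma adjusted p 0.00140). The other genes called higher were FNIP1 (0.55 on the log2 scale) and FNIP2 (0.76), partners of folliculin, and the arginine sensor SLC38A9 (0.27). On reads with TMM, SLC38A9 was at 0.19 with an edgeR adjusted p of 0.225, and the 4 genes that edgeR called higher were RRAGD, FNIP1, FNIP2 and FLCN, which codes for folliculin. LAMTOR4, the most abundant of the list, averaged 54.1 ± 9.80 FPKM in siChe-1 and 65.1 ± 8.95 FPKM in siControl (limma adjusted p 0.435).

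In the GATOR and KICSTOR complexes, through which amino acids and sestrins reach the Rag GTPases, 3 of 13 genes passed the minimum. On reads with TMM, edgeR called 1 of 12 higher and 1 lower, and in FPKM limma called 1 lower. That was SEH1L, a GATOR2 subunit shared with the nuclear pore, with 29.4 ± 1.54 FPKM in siChe-1 and 52.9 ± 3.36 FPKM in siControl (SD, n = 3 each; -0.73 ± 0.08 SE on the log2 scale, limma adjusted p 0.00109). Of 7 tested genes of LKB1 and AMPK, the energy sensor that activates TSC2, limma called 1 higher and 0 lower (2 and 0 before adjustment, and 1 and 0 of 9 by edgeR with TMM). This was PRKAB2, an AMPK beta subunit, with 26.1 ± 2.02 FPKM in siChe-1 and 18.4 ± 0.983 FPKM in siControl (SD, n = 3 each; 0.57 ± 0.08 SE on the log2 scale, limma adjusted p 0.00230). CAB39, the most abundant of that list, averaged 89.1 FPKM in siChe-1 and 87.9 FPKM in siControl. Of 7 tested genes of PI3K and AKT, which carry growth factor signals to mTOR, limma called 1 higher and 1 lower (1 and 1 before adjustment, and 1 and 1 of 14 by edgeR with TMM). The gene called lower was AKT2, an AKT kinase, at -0.32 ± 0.10 (SE) on the log2 scale with a limma adjusted p of 0.0454, and at -0.36 on reads with an edgeR adjusted p of 0.0379.

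Of 11 tested effectors of mTORC1, limma called 2 higher and 3 lower, where 15.1% of all tested genes were called in each direction. On reads with TMM, edgeR called 3 of 13 higher and 4 lower. The genes lower on reads included GRB10 (-1.37, edgeR adjusted p 5.18e-05) and EEF2K (-0.51, 0.00590), both below the FPKM minimum. EIF4E, the cap-binding protein that mTORC1 frees for translation, averaged 54.9 ± 3.20 FPKM in siChe-1 and 93.3 ± 7.65 FPKM in siControl (SD, n = 3 each; -0.66 ± 0.09 SE on the log2 scale, limma adjusted p 0.00244). It has 5 named pseudogenes, to which reads could be lost or added. RPS6KB1 (-0.43), the S6 kinase, and RPS6, its ribosomal substrate, were the other genes called lower, and the call of RPS6 (-0.39 ± 0.11 SE, limma adjusted p 0.0350, 13 named pseudogenes) was lost in 7 of 12 other settings. Its limma adjusted p was 0.113 without the siChe-1 library at position 2, 0.111 without that at position 3, 0.0917 without the siControl library at position 1 and 0.0879 without that at position 3. EIF4EBP2 (0.57) and PDCD4 (0.48), which restrain translation and are inactivated downstream of mTORC1, were called higher.

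**Figure D5:**
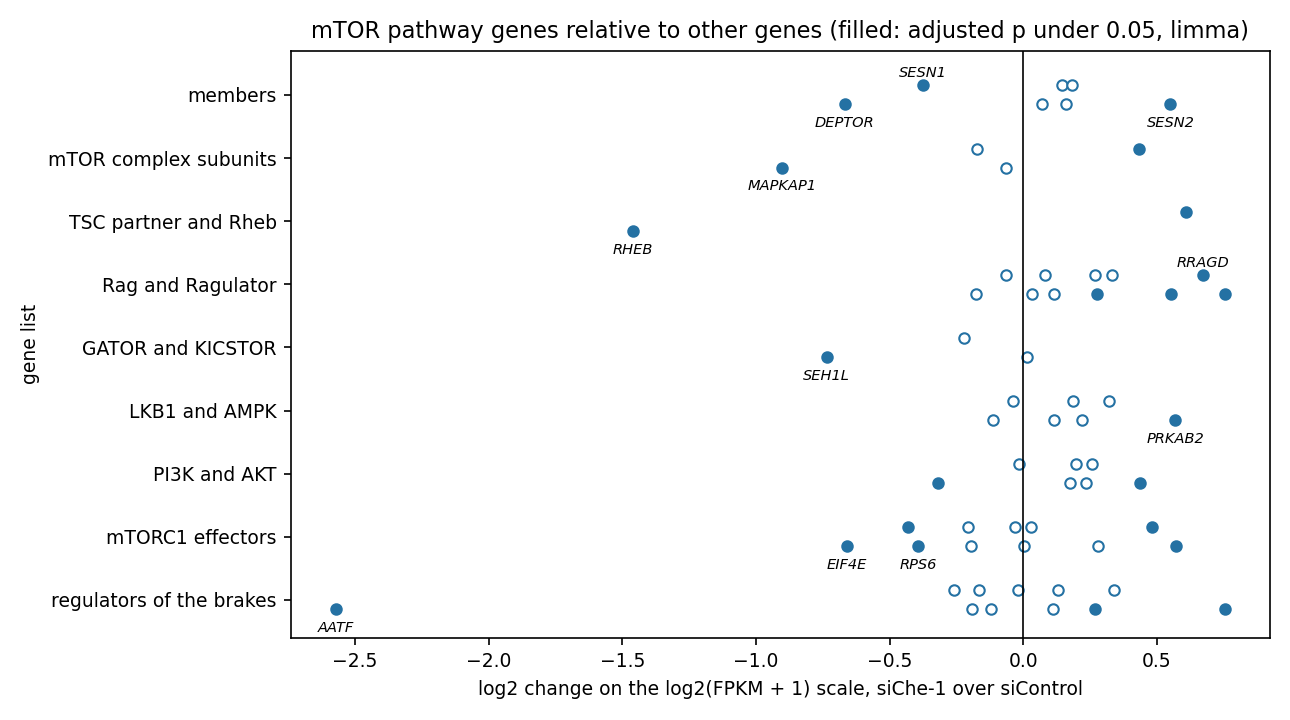
Log2 change on the log2(FPKM + 1) scale, siChe-1 over siControl, of the tested members, of 7 lists of other mTOR pathway genes and of regulators of the brakes, with a point per gene and filled points at a limma adjusted p under 0.05. RHEB at -1.46 and MAPKAP1 at -0.90 lie furthest to the low side among the pathway genes shown, which passed the FPKM minimum, and AATF at -2.57 among the regulators.

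Of 11 tested regulators of the brakes, limma called 2 higher and 1 lower, where 15.1% of all tested genes were called in each direction. On reads with TMM, edgeR called 3 of 12 higher and 2 lower, where 14% of all tested genes were called higher and 14.8% lower. The list holds p53, ATF4, FOXO and hypoxia factors and ubiquitin ligase subunits. The gene that limma called lower was AATF (-2.57 ± 0.11 SE on the log2 scale, limma adjusted p 0.000117), which was on the list as the silenced gene. The genes that limma called higher were TXNIP (0.75 on the log2 scale), which binds REDD1, and FBXW11 (0.27, limma adjusted p 0.04997), a subunit of the ubiquitin ligase known to degrade DEPTOR. On reads with TMM, FBXW11 was at 0.13 with an edgeR adjusted p of 0.397. BTRC, a further ubiquitin ligase subunit below the FPKM minimum, was called higher on reads (0.32, edgeR adjusted p 0.0487), as were TXNIP and ATF4. CUL4A was called lower on reads (-0.33, edgeR adjusted p 0.0315), as was AATF. ATF4, the stress factor known to induce SESN2 and DDIT4 and the most abundant of the list, had 180, 202 and 173 FPKM in siChe-1, against 142, 178 and 148 FPKM in siControl. A single siControl library reached into the range of siChe-1. Its value was 0.34 ± 0.13 (SE) on the log2(FPKM + 1) scale with a limma adjusted p of 0.0862 (0.0249 without the siControl library at position 2), and 0.31 on reads with an edgeR adjusted p of 0.0379. That call on reads was lost in 4 of 10 other settings, with an edgeR adjusted p of 0.111 without siControl replicate 1, 0.145 without siControl replicate 3, 0.173 without siChe-1 replicate 1 and 0.0850 without siChe-1 replicate 2.

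The genes whose pattern over the 6 libraries was most like that of DEPTOR were CAMKMT, LSM12 and EIF4E. Likeness was the root mean square difference of log2(FPKM + 1) after each gene was centred on its own mean. It was 0.0445 for CAMKMT, 0.0445 for LSM12 and 0.0512 for EIF4E, against a median of 0.372 over all tested genes. The measure includes the difference between the groups. That was -0.68 for CAMKMT, -0.67 for LSM12 and -0.66 for EIF4E, against -0.67 for DEPTOR. For DDIT4 the nearest were C17orf62 at 0.0320, MED9, a Mediator subunit, at 0.0358 and STK11, which codes for LKB1, at 0.0401. The median there was 0.245. For both members these genes were picked as the nearest of all tested genes, so they lie below the median by selection. Shared regulation was not tested.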

How the data were processed

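Total RNA of KMS-27 cells was sequenced, per the labels, in 6 libraries, and the titles gave their groups and replicate numbers. One deposited table holds a raw count per library for each of 92 spike-ins, per the file headers. Another holds, for 16444 genes, a deposited signal: mean reads of a group after division by spike-in size factors. Beside it stand the authors' ratio of the groups (fold), the log2 of that ratio by the authors, and the authors' p-value, raw and adjusted. The last deposited table lists FPKM for 18750 transcripts, by group and by library, with a log2 ratio, a p and a q from the authors. TopHat, Cufflinks, Cuffdiff, HTSeq, DESeq2 and hg19 are named, per the submitters' processing notes, without versions or roles.

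Whole reads were recovered from the authors' means. Of 2139 low siChe-1 means and 1327 low siControl means, 100% were sums of whole reads over size factors when siChe-1 replicates 1 and 2 were assumed (relative tolerance 8e-15). Under each other pair of siChe-1 replicates it was 0%. All 3 siChe-1 replicates together were tried on 300 low means of each group, and 0% were such sums. Reads were recovered for 16343 genes (99.4%), the members and AATF among them. The other 101 genes, with means of at least 24122.8, hold 16.8% of the siChe-1 signal and 17.7% of the siControl signal, and are left out of library totals and tests on reads.

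FPKM of a gene was the sum over its transcripts on assembled chromosomes. Where the mean FPKM was 10 or more, genes were rescaled by the median of ratios, and log2(FPKM + 1) was tested with limma 3.58.1 (R 4.3.3) with a mean-variance trend. Reads of genes with a mean of 10 or more after spike-in scaling were tested with the quasi-likelihood test of edgeR 4.0.16, once with the spike-in size factors and once with TMM, with DESeq2 1.42.0 as an alternative. Standard errors on reads were the fold change over the square root of the test's F. Tests were two-sided, with Benjamini-Hochberg adjustment over all genes tested and a threshold of 0.05. The recovery of reads and the limma and edgeR tests were tried on simulated data. Alternatives were other minimums, a pseudocount of 0.1, other scalings, transcripts on their own, DESeq2, a replicate block and leaving out each library.

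The members and lists were chosen with earlier results of these data known. Named genes were the members, AATF, the gene with the smallest limma p and the most abundant gene of each list, and the 3 genes most like DEPTOR and DDIT4. Other genes called in a list were named after their values were seen. Some pathway genes that count in their list are not reported here by name. Promoter windows come from RefSeq on GRCh38.p14, where 8 of the 10 members have an entry.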

Additional observations from a re-analysis of the deposited data

How the results depend on the processing

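On FPKM, limma called 1897 genes, against 2934 at a minimum of 1 FPKM, 3044 with no minimum and 984 to 1743 with a library left out. Members called higher were 1, against 2 at a minimum of 1 FPKM and 0 to 1 with a library left out, and members called lower were 2, against 1 to 2. Pathway genes called lower were 7, against 4 to 6 with a library left out, and higher 10, against 4 to 9. Those lower were 8 at a minimum of 1 FPKM, 9 with no minimum and 6 by the upper quartile. Those higher were 12 by the upper quartile and 7 without rescaling. On reads against the spike-ins, edgeR called 10553 genes and 9 members lower, against 2847 to 11687 genes and 2 to 10 members with a library left out. On reads with TMM, it called 3604 genes, against 2062 to 4111, 1 member higher, against 0 to 1 and 2 by the upper quartile, and 12 pathway genes higher, against 6 to 16.

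Libraries of the same replicate number correlated at 0.188 (replicate 1) and 0.208 (replicate 2) in their deviations from the group means, over too few pairs to show that the numbers pair them. With the replicate block, edgeR called 58 genes and 0 members on the spike-in scale, and 3872 genes with TMM, where it changed no call of a member. No paired analysis of FPKM was possible because its columns carry no replicate number.

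DEPTOR kept its limma call in all 12 other settings (-0.76 to -0.60) and its TMM call in all 10 (-0.83 to -0.67). SESN1 lost its limma call in 3 of 12 and its TMM call in 0 of 10, SESN2 in 3 of 12 and 1 of 10. Values that turned, none of them called, were TSC2 (-0.015 with the deposited scaling, and -0.066 to 0.15 on reads with a library left out), DDIT4 per MTOR (0.066 on reads), CAB39 (-0.014 to 0.25 in FPKM and -0.20 to 0.039 on reads with a library left out, and on reads 0.0084 by the upper quartile and 0.0074 with the replicate block), and LAMTOR4 (-0.32 to 0.030 on reads with a library left out). The cause was not tested. Depth limits SESN3, with 7 to 16 reads per library.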

Other observations

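On the spike-in scale, the authors' deposited table gives log2 fold changes of -2.74 for RHEB, -2.63 for GRB10 and -2.27 for MAPKAP1. It gives -2.06 for EIF4E and -2.01 for SEH1L. Of 73 pathway genes tested there, the authors' deposited table calls 49 lower and 0 higher (60 and 0 before adjustment), and edgeR called 64 of 71 lower and 0 higher (64 and 0 before adjustment), with medians of -1.15 and -1.11. Of all tested genes, 63.5% were called lower in the authors' deposited table and 84.3% by edgeR. Several pathway genes named in the report did not pass the test in the authors' deposited table. These were RRAGD (-0.63, adjusted p 0.224), FNIP2 (-0.59, 0.215), TBC1D7 (-0.63, 0.374), EIF4EBP2 (-0.71, 0.145), RHEBL1 (-0.72, 0.277) and FLCN (-0.72, 0.169). The others were PRKAB2 (-0.82, 0.0776), PDCD4 (-0.84, 0.0740), FNIP1 (-0.88, 0.0516), STK11 (-1.001, 0.0506) and LAMTOR4 (-1.44, 0.0625).

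Transcript shares of the members were close between the groups. The most abundant transcript held 94.2% of the gene's FPKM in siChe-1 and 96.3% in siControl for TSC2, 84.4% in siChe-1 and 82.9% in siControl for RPTOR, 78.5% in siChe-1 and 81.2% in siControl for AKT1S1, and 63.3% in siChe-1 and 62.0% in siControl for TSC1. No test was run on these shares.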
